A study of Mus musculus with 8 samples.

Results

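The genes described here are 46 genes of mitosis and the spindle, which drive entry into mitosis, attach chromosomes to the spindle and divide the cell. They were chosen by name, as a list of gene symbols. All 46 were found by mapping the Ensembl identifiers of the count table to gene symbols on GRCm38, among 55487 genes listed and 20610 genes tested, and all 46 had the 10 reads over the samples needed for testing. The data are bulk RNA-seq of LT-HSCs, the long-term repopulating hematopoietic stem cells, sorted by the authors from fetal liver at E14.5 as LSK CD48- CD150+ cells, with 500 cells per sample. The embryos came from matings of parents heterozygous for the targeted *Nfkbia* tm1Bal allele, some of which could also carry the *Gfi1:tomato* reporter, and the carriers among the samples are not given in the sources used here. *Nfkbia* encodes IκBα, the inhibitor that holds NF-κB in the cytoplasm. The 3 groups are *IκBα* WT (3 samples), HET (3 samples, 1 targeted allele) and KO (2 samples, both alleles targeted in every cell), and the methods state that 1 further KO sample was discarded for its sequencing quality. The male samples were WT1, WT2 and HET1, and the 5 others, both KO samples among them, were female. The labels also give total RNA for the 3 male samples and polyA RNA for the 5 female samples, so that sex and this label cannot be told apart.

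Mitosis begins when cyclin B and CDK1 become active, and it ends when the anaphase-promoting complex, APC/C, destroys cyclin B and securin. Between these steps the kinetochores bind microtubules, the spindle assembly checkpoint holds back the APC/C until every chromosome is attached, and kinesin motors shape the spindle and the midzone. Most genes of this program are transcribed in G2 and mitosis and repressed in resting cells, so their RNA in bulk samples is widely used as a measure of cycling. Fetal liver HSCs are known as a cycling population, unlike most HSCs of adult bone marrow.

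The depth ran from 17895973 reads on genes in KO1 to 21720972 in WT3, and 3 reads corresponded to 0.125 to 0.178 CPM, the counts scaled to library size by the TMM method. *Nfkbia* was at 45.3, 67.7 and 23.4 CPM in WT, 23.3, 29.0 and 14.4 CPM in HET, and 0.0489 and 0 CPM (1 and 0 reads) in KO. HSC marker RNA varied widely within WT, while HET and KO did not overlap. The summed level of 9 HSC markers was 1459, 1544 and 244 CPM in WT1, WT2 and WT3, 514, 490 and 194 CPM in HET1, HET2 and HET3, and 1400 and 932 CPM in KO1 and KO2. In HET3 the HSC markers *Procr*, *Mecom* and *Tek* were at 1.13, 1.36 and 0.593 CPM and *Ly6a* at 0, against 169, 237, 66.5 and 62.7 CPM in WT1, while *Kit*, which progenitors also express, was at 135 to 231 CPM in all 8 samples. WT3 and HET3 therefore stand apart from their label as LT-HSCs, and the counts and medians over the 46 genes are given with and without them, while the values of single genes include them. The HET effect by sex cannot be fitted without WT3, the only female WT sample.

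The promoters of the mitosis genes shared letters that the choice of genes did not use. The CHR, here the letters TTTGAA or their variant with the letters TTCGAA, and the CCAAT box are the elements through which the DREAM and MuvB complexes and NF-Y are known to act on G2/M genes. In RefSeq windows on GRCm38.p6 from 250 bases before to 50 bases after the start, searched on both strands with overlapping matches counted, 38 of the 46 genes had an entry. The CHR letters were in 30 of the 38 (78.9%) and in 21.7% of all 27025 genes with a window. CCAAT was in 28 (73.7%) and in 41.1% of all genes. A CCAAT followed 25 to 40 bases further on by a CHR, start to start, was in 14 of the 38 (36.8%) and in 0.803% of all genes. Genes without an entry were *Aurkb*, *Ccna2*, *Cdc25c*, *Foxm1*, *Incenp*, *Kif20a*, *Spc24* and *Tpx2*. The 110 bases before the start are shown 5′ to 3′ on the gene's own strand for 6 genes that carry the pair, and for *Ccnb1* and *Pttg1*, which vary strongly across the samples and have no CHR letters in their windows. Capitals mark CCAAT, which reads ATTGG when it lies on the other strand, and TTTGAA, which then reads as the letters TTCAAA.
Cdk1, chr10:69352913-69353022, minus strand: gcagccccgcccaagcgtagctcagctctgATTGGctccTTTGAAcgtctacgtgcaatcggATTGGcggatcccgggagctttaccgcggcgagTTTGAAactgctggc
Ube2c, chr2:164769819-164769928, plus strand: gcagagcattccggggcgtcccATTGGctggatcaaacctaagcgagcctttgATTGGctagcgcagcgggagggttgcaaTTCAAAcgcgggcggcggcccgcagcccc
Cdc20, chr4:118437344-118437453, minus strand: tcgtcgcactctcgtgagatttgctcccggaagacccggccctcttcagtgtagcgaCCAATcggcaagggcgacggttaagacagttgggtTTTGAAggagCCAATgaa
Top2a, chr11:99024190-99024299, minus strand: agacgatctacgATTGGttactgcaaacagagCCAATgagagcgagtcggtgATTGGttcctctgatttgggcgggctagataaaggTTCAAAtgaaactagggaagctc
Kif11, chr19:37376272-37376381, plus strand: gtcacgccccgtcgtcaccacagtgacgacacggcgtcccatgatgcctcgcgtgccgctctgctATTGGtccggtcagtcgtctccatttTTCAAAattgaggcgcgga
Prc1, chr7:80294366-80294475, plus strand: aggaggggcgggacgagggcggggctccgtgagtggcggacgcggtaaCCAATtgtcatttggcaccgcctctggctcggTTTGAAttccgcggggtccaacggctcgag
Ccnb1, chr13:100786487-100786596, minus strand: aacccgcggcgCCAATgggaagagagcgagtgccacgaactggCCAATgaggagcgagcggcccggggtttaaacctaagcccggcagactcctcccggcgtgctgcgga
Pttg1, chr11:43425982-43426091, minus strand: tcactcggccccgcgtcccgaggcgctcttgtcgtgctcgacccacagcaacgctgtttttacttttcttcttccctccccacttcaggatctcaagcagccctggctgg
In *Cdk1* the pair nearest the start began at -48 (CCAAT) and -15 (CHR), 33 bases apart, and in *Cdc20* at -53 and -18, 35 bases apart. The spacing was 35 bases in *Top2a*, 32 in *Prc1*, 28 in *Ube2c* and 26 in *Kif11*. *Ccnb1* has CCAAT at 2 places in the stretch shown, and *Pttg1* has none there. These letters are descriptions of the windows, not measured binding sites. The highest over the lowest CPM of the 8 samples had a median of 1.99 over the 14 genes with the pair, 1.61 over 16 genes with the CHR letters alone and 2.23 over 8 genes without them, so the size of the spread across samples did not follow the presence of the pair.

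Across the 8 samples the 46 genes moved largely together, and the order of the samples was not the order of the genotypes. Their summed level was lowest in WT1 (7529 CPM) and WT2 (7030 CPM), then came KO1 (8216 CPM) and KO2 (10368 CPM), and the highest levels were in HET2 (11754 CPM), HET1 (11982 CPM), HET3 (13087 CPM) and WT3 (13178 CPM). By genotype this was 9246 ± 3415 CPM in WT (SD, n = 3), 12274 ± 713 CPM in HET (SD, n = 3) and 9292 ± 1522 CPM in KO (SD, n = 2). WT therefore spanned the whole range, and all HET and KO samples lay inside it. The genes took from 0.815% (WT2) to 1.16% (WT3) of all counted reads. The highest over the lowest sample was 1.87 for the sum, and it was 1.34 for the least variable gene, *Kif23*, and 6.42 for the most variable, *Nek2*.

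**Figure D1:**
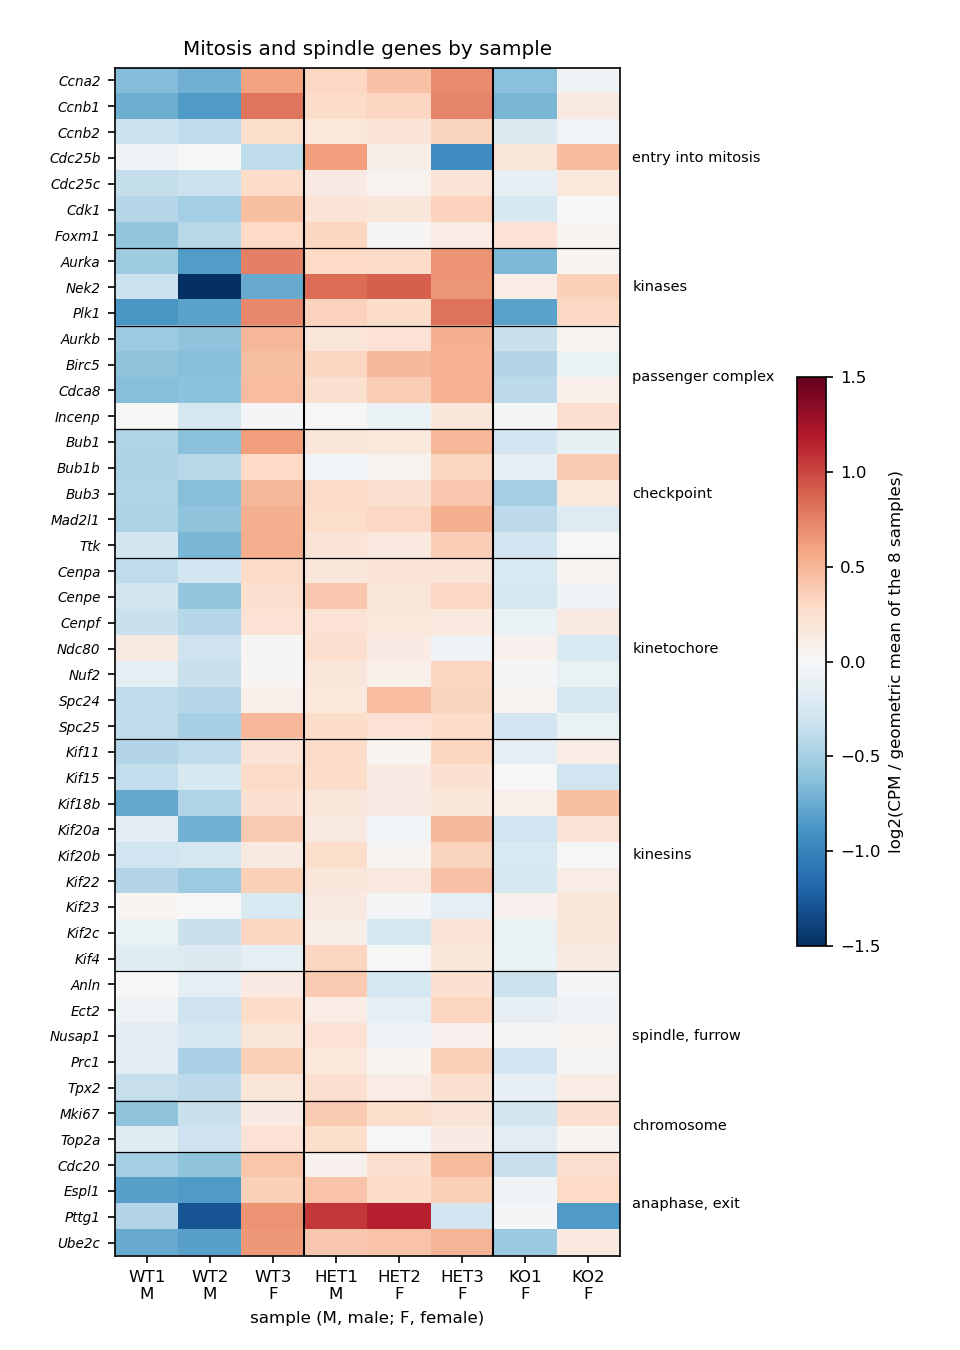
Level of each of the 46 genes (rows, grouped by role) in each of the 8 samples (columns), as log2 of the CPM over the gene's geometric mean across the 8 samples, with M and F for male and female. WT1 and WT2 are low for most genes, WT3 and the HET samples high, KO1 nearer to the former and KO2 in between, while *Cdc25b* and *Kif23* do not follow the rest.

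The lowest of the 8 values was in WT2 for 32 genes and in WT1 for 11, and in 1 gene each it was in WT3, HET3 and KO1. HET3 held the highest value for 14 genes, WT3 for 13, HET1 for 12, KO2 for 4 and HET2 for 3. KO1 was below KO2 for 40 of the 46 genes, against 47.2% of all 20610 genes tested. The Pearson correlation of a gene with the mean of the other 45 over the 8 samples, which share libraries and scaling, was above 0.9 for 27 genes, given as a description. It was below 0 for 2 genes, *Cdc25b* and *Kif23*. Per kilobase of exon, the mean level over the 8 samples was highest for *Ccnb2* (307 CPM per kb) and *Ube2c* (248 CPM per kb) and lowest for *Foxm1* (5.09 CPM per kb) and *Espl1* (2.91 CPM per kb), which encodes separase. Exons of 13 of the genes overlap a gene on the opposite strand, *Cdc20* and *Ube2c* among them, and the strand setting of the counting is not given in the sources used here, so reads there cannot be assigned with certainty.

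The main comparison of the study set KO against WT and HET together, with sex in the model. With edgeR's quasi-likelihood test, none of the 46 genes (0) passed a Benjamini-Hochberg adjusted p of 0.05 with an absolute log2 fold change over 1, as was the case for all 20610 genes (0%). The targeted gene *Nfkbia* itself was not called (log2 fold change -9.50, edgeR adjusted p = 0.0862). The absence of a call by this test is therefore no measure of an unchanged level. DESeq2 also called 0 of the 46, while it called 1.64% of all genes lower and 7.37% higher without apeglm shrinkage, and 0.607% lower and 6.56% higher with it. At an unadjusted p under 0.05, edgeR had 5 of the 46 lower in KO (10.9%), against 9.48% of all genes and 24.1% of the 6510 genes whose mean CPM was within the range of the 46. None was higher (0, against 15.7% of all genes). These 5 were *Ccna2*, *Aurka*, *Birc5*, *Bub1* and *Mad2l1*. The log2 fold change was below 0 for 41 of the 46, against 44.8% of all genes and 62.1% of the 6510 genes of like CPM. Its median was -0.32, against 0.13 over all genes and -0.18 over those of like CPM. The fold changes ran from -1.02 for *Pttg1*, -0.90 for *Ccna2* and -0.87 for *Aurka* to 0.10 for *Kif18b*, 0.26 for *Kif23* and 0.68 for *Cdc25b*. No gene had both KO samples below all 6 WT and HET samples (0 of 46, against 1.79% of all genes) or above them (0 of 46, against 3.05%). In such bulk samples a smaller share of cells in mitosis and less of these RNAs per cell cannot be told apart.

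The sign of the fold changes moved with the scaling, for all genes alike, and the count of genes at an unadjusted p under 0.05 moved with single samples. With counts scaled by library size only, the median over all genes moved from 0.13 to 0.41, 24 of the 46 mitosis genes were below 0 and their median was -0.05. The median of the 46 relative to that of all genes was -0.45 under both scalings. A change of scaling shifts all genes by about the same amount, so this gap could hardly move. Over the other alternatives it ran from -0.55 without KO2 to -0.14 without the sex covariate. Without WT3 and HET3, the samples with the least HSC marker RNA, 35 of the 46 were below 0, the median was -0.25 and 0 genes were lower at an unadjusted p under 0.05 (against 1.02% of all genes). Leaving out HET1 raised that count from 5 to 21 (against 12.9% of all genes), and leaving out KO1 lowered it to 0 (against 1.67%).

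**Figure D2:**
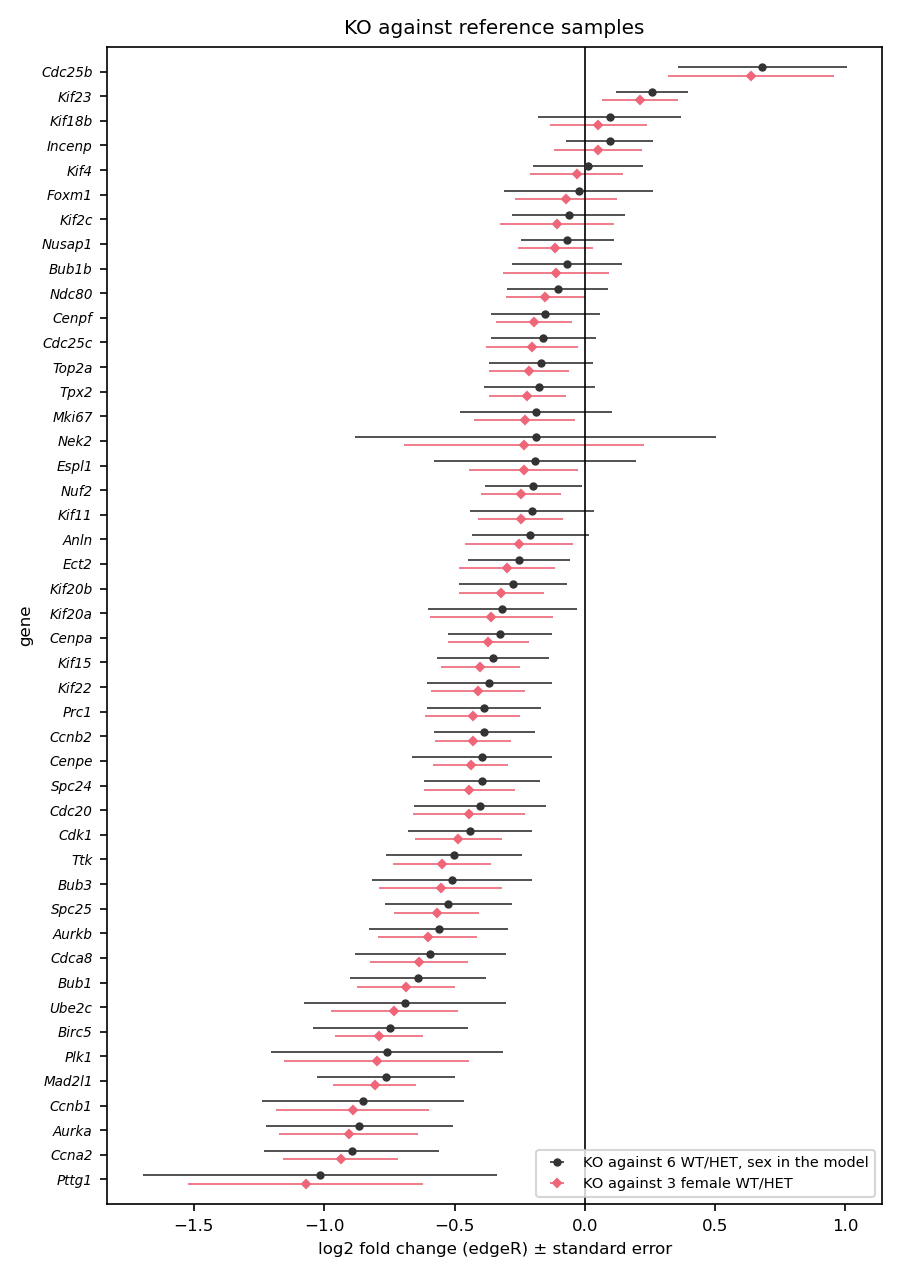
Log2 fold change (points) with its standard error (bars) from edgeR for each of the 46 genes, for KO against the 6 WT and HET samples with sex in the model (black circles) and for KO against the 3 female WT and HET samples (red diamonds). From *Pttg1* at -1.02 to *Cdc25b* at 0.68, 41 of the black points lie below 0, and none passed the adjusted threshold. Both sets of points rest on the same 3 female reference samples.

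Since both KO samples were female, they were also compared with the 3 female WT and HET samples alone, 2 of which are WT3 and HET3. With sex in the model and no male KO sample, the fold changes above also set KO against these 3 female samples. The male samples enter those only through the scaling and the spread. The 2 comparisons are therefore the same contrast fitted in 2 ways, not separate results. edgeR again called 0 of the 46 genes and 0% of all genes, and DESeq2 called 0 of the 46, against 2.33% of all genes lower and 6.72% higher. At an unadjusted p under 0.05, 16 of the 46 were lower in KO (34.8%, against 12.3% of all genes and 31.4% of the 6510 genes of like CPM) and 0 higher (against 12.6%). With 1 sample left out, this count ran from 7 without WT3 (against 6.68% of all genes) to 25 without KO2 (against 16.2%). With WT3 and HET3 both left out, which leaves HET2 alone as reference, it was 0 (against 0.485%), with 35 genes below 0 and a median of -0.25. Both KO samples were below all 3 female samples for 25 of the 46 genes, against 21.4% of all genes, and above all 3 for *Cdc25b* and *Kif23* (2 of 46, against 27.1%). Taken singly, KO1 was below all 3 for 35 genes and KO2 for 27, which both include the 25, and the share over all genes was not computed. The median log2 fold change was -0.36, against 0.08 over all genes and -0.22 over those of like CPM. It was below 0 for 42 of the 46, against 64.6% of the genes of like CPM, and with library-size scaling 24 genes were below 0. Without KO2, edgeR called 5 genes lower (against 4.92% of all genes), *Plk1* (-1.49), *Ccnb1* (-1.39), *Aurka* (-1.32), *Ccna2* (-1.28) and *Ube2c* (-1.15), with the single remaining KO sample assumed to vary like the others.

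Set beside the male WT samples the order was the other way round. Both KO samples were above both WT1 and WT2 for 34 of the 46 genes, against 15.7% of all genes, and below both for 0 of the 46, against 17.9%. Sex, and the RNA label with it, differed between these 2 pairs of samples, so genotype and sex cannot be told apart there. The plot of 9 genes shows this for a gene of each role but the kinases. There KO1 of *Plk1* (118.2 CPM) was just below WT2 (118.3 CPM).

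**Figure D3:**
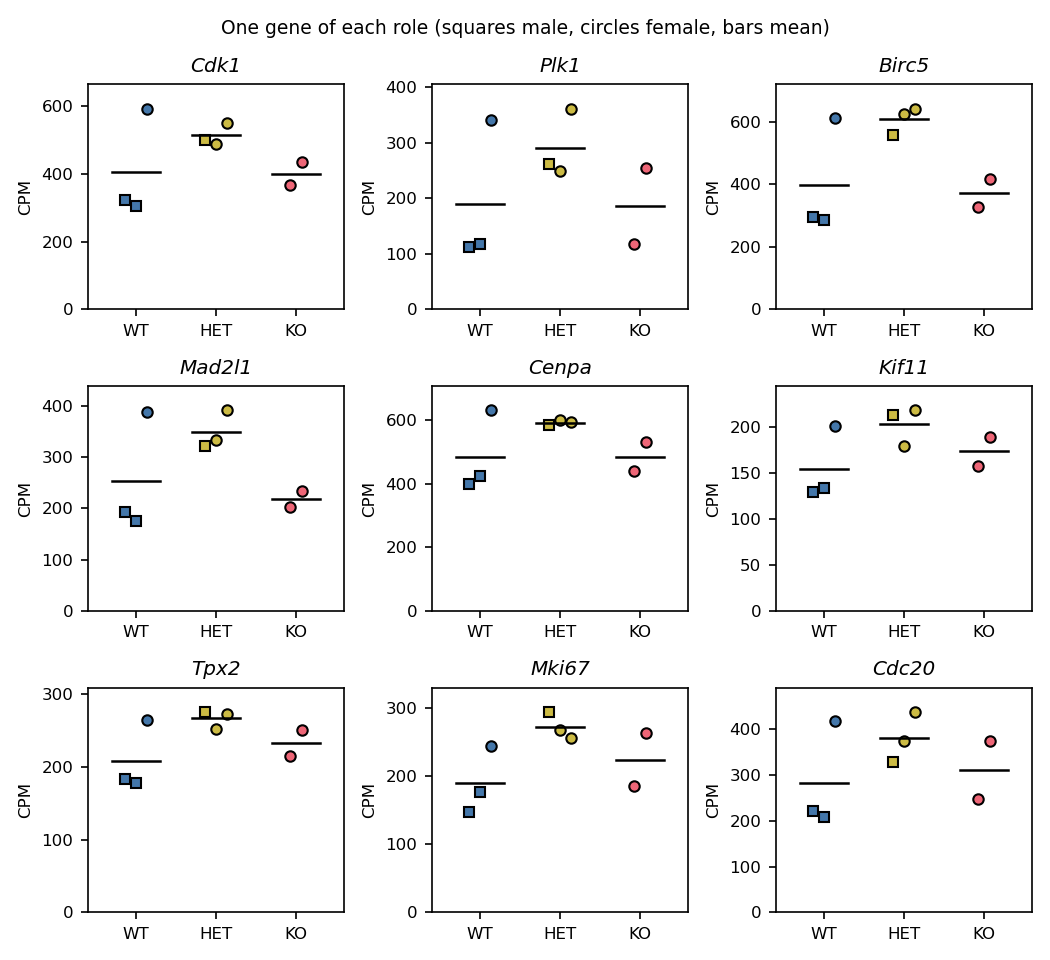
CPM (vertical axes, from 0) of 1 gene of each of the 9 roles in the 3 WT, 3 HET and 2 KO samples, with squares for male, circles for female and bars for the group mean. In each panel WT splits into 2 low male samples and 1 high female sample, and the KO samples lie within the range of WT in all 9 genes but *Mki67*, where KO2 (264 CPM) is above WT3 (244 CPM).

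Of the 7 genes for entry into mitosis, 6 had a log2 fold change below 0 in KO against WT/HET, with a median of -0.39. *Cdk1*, the kinase that drives mitosis, was at 322, 305 and 592 CPM in WT, 500, 487 and 551 CPM in HET, and 367 and 433 CPM in KO. *Ccnb1*, which encodes its partner cyclin B1, was at 138, 127 and 400 CPM in WT, 278, 286 and 379 CPM in HET, and 142 and 252 CPM in KO. In both genes the KO samples lay above WT1 and WT2 and below the 4 others, and KO1 was the lower of the pair. In KO against WT/HET edgeR gave log2 fold changes of -0.44 (SE 0.24, edgeR adjusted p = 0.27) for *Cdk1* and -0.85 (SE 0.39, edgeR adjusted p = 0.211) for *Ccnb1*. *Ccna2*, for cyclin A2, which acts in S phase and early mitosis, was at 298, 285 and 712 CPM in WT, 581, 636 and 765 CPM in HET, and 304 and 453 CPM in KO. Its log2 fold change was -0.90 (SE 0.34, edgeR unadjusted p = 0.0274, adjusted p = 0.165).

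*Foxm1* and *Cdc25b* departed from this pattern. *Foxm1*, the transcription factor that activates G2/M genes, was at 19.1, 21.6 and 35.4 CPM in WT, 35.8, 29.0 and 31.1 CPM in HET, and 33.4 and 29.2 CPM in KO. KO was thus within the range of HET, and the log2 fold change was -0.02 (SE 0.29, edgeR adjusted p = 0.972), with a sign that turned under several alternatives. *Cdc25b*, a phosphatase that activates CDK1, was at 33.8, 35.3 and 27.0 CPM in WT, 53.8, 37.3 and 18.4 CPM in HET, and 39.7 and 48.8 CPM in KO. It was lowest in HET3 and WT3, where most of the other genes were highest, and its log2 fold change of 0.68 (SE 0.32, edgeR adjusted p = 0.223) was the highest of the 46. Of the remaining genes of this role, *Ccnb2*, for cyclin B2, had -0.39 and *Cdc25c*, another CDK1 phosphatase, -0.16.

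The mitotic kinases held the widest swings between samples. *Aurka*, which matures centrosomes and spindle poles, was at 211, 171 and 515 CPM in WT, 373, 373 and 484 CPM in HET, and 191 and 311 CPM in KO. *Plk1*, which acts from mitotic entry to cytokinesis, was at 113, 118 and 340 CPM in WT, 261, 248 and 361 CPM in HET, and 118 and 255 CPM in KO. KO1 was at the level of the male WT samples in both, and KO2 was above it. By edgeR the log2 fold change was -0.87 (SE 0.36, edgeR unadjusted p = 0.0415, adjusted p = 0.185) for *Aurka* and -0.76 (SE 0.45, edgeR adjusted p = 0.303) for *Plk1*. *Nek2*, a kinase of centrosome separation, had a fold change of -0.19 in KO and is described with the HET samples.

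The chromosomal passenger complex corrects faulty attachments and later acts at the midzone. *Aurkb*, its kinase, was at 197, 189 and 406 CPM in WT, 327, 335 and 417 CPM in HET, and 227 and 296 CPM in KO. *Birc5*, which encodes survivin, was at 295, 286 and 611 CPM in WT, 557, 624 and 641 CPM in HET, and 328 and 417 CPM in KO. Both genes had the KO samples between the male WT samples and all the others, without overlap. For these genes the log2 fold change was -0.56 (SE 0.27, edgeR adjusted p = 0.224) for *Aurkb* and -0.75 (SE 0.30, edgeR unadjusted p = 0.0353, adjusted p = 0.176) for *Birc5*. *Cdca8*, for borealin, had -0.59. The scaffold *Incenp* was nearly level across all samples, from 78.0 CPM in WT2 to 111 CPM in KO2, with a log2 fold change of 0.09.

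All 5 genes of the spindle assembly checkpoint had a log2 fold change below 0, with a median of -0.51. *Mad2l1*, for the MAD2 protein that blocks the APC/C activator CDC20, was at 193, 176 and 388 CPM in WT, 322, 333 and 391 CPM in HET, and 203 and 234 CPM in KO. *Bub1*, the kinase that gathers checkpoint proteins at the kinetochore, was at 116, 103 and 245 CPM in WT, 180, 176 and 224 CPM in HET, and 130 and 146 CPM in KO. In both, KO1 and KO2 lay close together, above WT1 and WT2 and below the other 4 samples. Against WT/HET the log2 fold change was -0.76 (SE 0.27, edgeR unadjusted p = 0.0198, adjusted p = 0.156) for *Mad2l1*, the lowest adjusted p of the 46, and -0.64 (SE 0.26, edgeR unadjusted p = 0.0381, adjusted p = 0.18) for *Bub1*. *Bub3* and *Ttk*, which encodes the kinase MPS1, had -0.51 and -0.50. *Bub1b*, for BUBR1, had -0.07, with 149 CPM in KO1 and 213 CPM in KO2, the highest of the 8 samples.

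The 7 kinetochore genes shifted less, with a median of -0.33 and all 7 below 0. *Cenpa*, the histone that marks the centromere, was at 398, 422 and 631 CPM in WT, 584, 598 and 593 CPM in HET, and 440 and 529 CPM in KO. *Cenpe*, the kinetochore kinesin that aligns chromosomes, was at 160, 129 and 231 CPM in WT, 257, 219 and 242 CPM in HET, and 164 and 187 CPM in KO. *Ndc80*, which binds microtubule ends, was at 136, 101 and 126 CPM in WT, 148, 135 and 120 CPM in HET, and 130 and 106 CPM in KO. The first pair showed the common order of samples, and *Ndc80* did not, with WT1 among its higher values and KO2 near the lowest. The log2 fold change was -0.33 (SE 0.20, edgeR adjusted p = 0.325) for *Cenpa*, -0.39 (SE 0.27, edgeR adjusted p = 0.372) for *Cenpe* and -0.10 (SE 0.19, edgeR adjusted p = 0.76) for *Ndc80*. Within the NDC80 complex, *Spc25* (-0.52) and *Spc24* (-0.40) were lower than *Nuf2* (-0.20), a difference that was not tested.

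The 9 kinesin genes had a median of -0.20, with 6 below 0. *Kif11*, the motor that pushes spindle poles apart, was at 130, 134 and 201 CPM in WT, 213, 180 and 219 CPM in HET, and 158 and 189 CPM in KO. *Kif20a*, a midzone motor of cytokinesis, was at 132, 89.2 and 193 CPM in WT, 162, 143 and 206 CPM in HET, and 120 and 170 CPM in KO. *Kif23*, the motor of the centralspindlin complex, was at 130, 127 and 108 CPM in WT, 140, 125 and 115 CPM in HET, and 133 and 145 CPM in KO. *Kif23* thus ran against the others, with WT3 and HET3 the lowest and KO2 the highest, over a narrow range. The log2 fold change was -0.20 (SE 0.24, edgeR adjusted p = 0.614) for *Kif11*, -0.32 (SE 0.29, edgeR adjusted p = 0.502) for *Kif20a* and 0.26 (SE 0.14, edgeR adjusted p = 0.268) for *Kif23*. *Kif18b*, which trims astral microtubules, was at 23.6, 29.2 and 46.9 CPM in WT, 44.9, 43.7 and 45.3 CPM in HET, and 42.3 and 54.5 CPM in KO, with a log2 fold change of 0.10 (SE 0.27, edgeR adjusted p = 0.854). The other kinesins lay between *Kif22* at -0.37 and *Kif4*, on the X chromosome, at 0.01.

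The 5 genes of spindle assembly and the cleavage furrow all had a log2 fold change below 0, with a median of -0.21. *Tpx2*, which activates Aurora A on the spindle, was at 183, 177 and 264 CPM in WT, 276, 252 and 274 CPM in HET, and 215 and 251 CPM in KO. *Prc1*, which bundles midzone microtubules, was at 183, 146 and 263 CPM in WT, 228, 210 and 262 CPM in HET, and 167 and 207 CPM in KO. KO1 of *Prc1* lay between the male WT samples, and KO2 lay just below HET2. By edgeR the log2 fold change was -0.18 (SE 0.21, edgeR adjusted p = 0.626) for *Tpx2* and -0.39 (SE 0.22, edgeR adjusted p = 0.29) for *Prc1*. *Ect2* (-0.25) and *Anln* (-0.21), of the contractile ring, and *Nusap1* (-0.07), a spindle microtubule binder, made up the rest.

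The pair of chromosome genes shifted little. *Mki67*, the proliferation marker Ki-67 that coats mitotic chromosomes, was at 148, 177 and 244 CPM in WT, 295, 268 and 256 CPM in HET, and 185 and 264 CPM in KO. *Top2a*, which untangles sister DNAs, was at 398, 364 and 522 CPM in WT, 541, 452 and 489 CPM in HET, and 403 and 464 CPM in KO. The KO samples overlapped the HET samples for both genes, through KO2. For these genes the log2 fold change was -0.19 (SE 0.29, edgeR adjusted p = 0.708) for *Mki67* and -0.17 (SE 0.20, edgeR adjusted p = 0.613) for *Top2a*.

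The 4 genes of anaphase and mitotic exit all had a log2 fold change below 0, with a median of -0.55. *Cdc20*, the APC/C activator, was at 221, 207 and 419 CPM in WT, 329, 375 and 439 CPM in HET, and 248 and 374 CPM in KO. *Ube2c*, the ubiquitin-conjugating enzyme of the APC/C, was at 354, 340 and 941 CPM in WT, 791, 806 and 850 CPM in HET, and 408 and 664 CPM in KO. *Pttg1*, for securin, was at 81.5, 45.0 and 175 CPM in WT, 230, 247 and 90.3 CPM in HET, and 108 and 61.0 CPM in KO. *Ube2c* kept the common order, *Cdc20* had KO2 above HET1, and *Pttg1* had its own, with HET3 far below HET1 and HET2 and with KO1 above KO2. Against WT/HET the log2 fold change was -0.40 (SE 0.25, edgeR adjusted p = 0.336) for *Cdc20*, -0.69 (SE 0.39, edgeR adjusted p = 0.286) for *Ube2c* and -1.02 (SE 0.68, edgeR adjusted p = 0.363) for *Pttg1*. *Espl1* had -0.19 (SE 0.39), with 13.7 and 13.4 CPM in WT1 and WT2 and 23.4 to 32.5 CPM in the 6 other samples.

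Heterozygous samples were compared with WT, with sex in the model. The log2 fold change was above 0 for 45 of the 46 genes. Of the 6510 genes of like CPM 62.3% were above 0, and of all genes 49.8% were below 0. The median was 0.30, against 0.0013 over all genes and 0.09 over those of like CPM. edgeR called 0 of the 46 and 0% of all genes, and 2 of the 46 were higher at an unadjusted p under 0.05 (4.35%, against 1.8% of all genes and 3.07% of the 6510 genes of like CPM) and 0 lower (against 1.82%). These 2 were *Nek2* and *Spc24*. The median turned to -0.08, with 35 genes below 0, without HET1, where HET2 and HET3 were set against WT3 alone. It was 0.65 without WT3, and 0.65 as well without WT3 and HET3. With no female WT sample left, both of these fits set HET1 alone against WT1 and WT2, so they give the same value.

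*Nek2* was the mitosis gene that differed most by this comparison. It was at 30.7, 11.2 and 22.7 CPM in WT, 69.0, 71.6 and 60.9 CPM in HET, and 41.5 and 49.2 CPM in KO. The 3 groups did not overlap, with KO between WT and HET, and 5 of the 46 genes had all HET samples above all WT samples, against 4.2% of all genes, and 0 all below, against 4.85%. Its log2 fold change in HET was 1.63 (SE 0.39, edgeR unadjusted p = 0.00483, adjusted p = 0.932), and DESeq2 called it at an adjusted p of 0.049, alone among the 46, against 0.141% of all genes called higher and 0.17% lower. *Spc24* was at 178, 173 and 246 CPM in WT, 259, 320 and 294 CPM in HET, and 240 and 196 CPM in KO, with a log2 fold change in HET of 0.44 (SE 0.14, edgeR unadjusted p = 0.0194, adjusted p = 0.932). Exons of *Nek2* overlap a predicted gene on the opposite strand.

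The HET samples sat differently in the 2 sexes. The male HET1 was above both male WT samples for 46 of the 46 genes, against 38.8% of all genes. The female HET2 and HET3 were both below the female WT3 for 18 of the 46, against 29.7% of all genes, and both above it for 7, against 24.7%. An interaction of HET with sex was above 0 (a larger HET effect in males) for 45 of the 46 genes. Of the 6510 genes of like CPM 58.8% were above 0, and of all genes 53.4% were below 0. The median was 0.69, against -0.12 over all genes and 0.14 over those of like CPM. edgeR called 0 of the 46 and 0% of all genes, but 27 of the 46 were higher at an unadjusted p under 0.05 (58.7%, against 6.39% of all genes and 14.1% of the 6510 genes of like CPM) and 0 lower (against 4.03%). The smallest p of these was that of *Ube2c* (1.37, SE 0.21, edgeR unadjusted p = 0.000914, adjusted p = 0.428). With 1 sample left out, this count ran from 10 without WT2 (against 2.79% of all genes) to 36 without HET3 (against 12.1%). DESeq2 called 4 of the 46 higher, *Ube2c*, *Ccnb1*, *Plk1* and *Aurka* (against 1.19% of all genes). The term compares 1 male HET sample with 2 male WT samples and 2 female HET samples with 1 female WT sample. Without HET3 edgeR called 12 of the 46 higher (against 4.78% of all genes), and without HET2 it called 2 (against 1.6%).

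Male samples were set against female samples, which is also the comparison of the 2 RNA labels. The model was that of KO against WT/HET, with a KO term and with WT and HET pooled. WT1, WT2 and HET1 were thus set against WT3, HET2 and HET3, so part of any HET difference enters it. The log2 fold change was below 0 for 42 of the 46 genes, against 43.2% of all genes and 62.5% of the 6510 genes of like CPM. Its median was -0.45, against 0.19 over all genes and -0.20 over those of like CPM. With library-size scaling it was below 0 for 34 of the 46. edgeR called 0 of the 46 genes, against 0.0194% of all genes, and 18 of the 46 were lower in males at an unadjusted p under 0.05 (39.1%, against 13.6% of all genes and 33.9% of the 6510 genes of like CPM) and 0 higher (against 18.9%). With 1 sample left out, this count ran from 0 without WT1 (against 6.44% of all genes) to 37 without HET1 (against 18.2%). DESeq2 called *Ccnb1* alone, against 3.01% of all genes lower and 11.5% higher. Leaving out HET1 gave 10 genes called lower (against 6.13% of all genes), from *Plk1* at -1.46 to *Aurkb* at -1.01. The lowest values came from *Ccnb1* (-0.97), *Plk1* (-0.95) and *Aurka* (-0.86), and *Kif23* (0.19) and *Cdc25b* (0.57) were again on the other side. Within the male samples, though, WT1 and WT2 were apart from HET1. WT1 and WT2 were below all 4 other WT and HET samples for 38 of the 46 genes, against 23.2% of all genes, and above them for 0, against 28.6%. All 3 male samples were below all 3 female WT and HET samples for 11 genes, against 17.5% of all genes, and above them for *Kif23* only, against 21.1%. With WT3 and HET3 left out the median was -0.38 and 0 genes were lower at an unadjusted p under 0.05 (against 1.2% of all genes).

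The level of the mitosis genes moved with some lists of marker RNA and against others. The Pearson correlation of their mean log2 CPM over the 8 samples is given as a description. It was 0.77 with the erythroid, 0.89 with the hepatocyte and 0.58 with the myeloid list. It was -0.78 with the HSC, -0.84 with the megakaryocyte, -0.80 with the endothelial and -0.59 with the progenitor list. The 4 samples with the highest summed mitosis level, WT3, HET3, HET1 and HET2, were the 4 with the least HSC marker RNA, from 194 to 514 CPM, and the 4 others had 932 to 1544 CPM. The 11 erythroid markers summed to 1504, 1241 and 3509 CPM in WT, 14840, 5690 and 3854 CPM in HET, and 708 and 3326 CPM in KO. *Klf1*, the erythroid transcription factor, was at 114, 85.4 and 1040 CPM in WT, 731, 941 and 1227 CPM in HET, and 36.2 and 518 CPM in KO. The 7 hepatocyte markers summed to 52.6, 83.4 and 1364 CPM in WT, 131, 196 and 695 CPM in HET, and 48.5 and 281 CPM in KO. *Klf1* therefore had the same 4 samples on top as *Cdk1*, and KO2 came next in both. The 6 megakaryocyte markers summed to 71.6 to 1295 CPM in WT, 34.2 to 441 CPM in HET, and 114 and 1028 CPM in KO. The 6 endothelial markers summed to 15.1 to 156 CPM in WT, 4.51 to 61.2 CPM in HET, and 80.3 and 140 CPM in KO. The 5 progenitor markers summed to 95.1 to 623 CPM in WT, 59.6 to 318 CPM in HET, and 353 and 533 CPM in KO. The 7 myeloid markers summed to 671 to 894 CPM in WT, 135 to 771 CPM in HET, and 388 and 677 CPM in KO. The sums of all but the myeloid list thus spanned wide ranges within WT. Among single myeloid markers *Mpo* was at 68.2, 49.1 and 456 CPM in WT and *Lyz2* at 489, 552 and 183 CPM, opposite shifts that the sum hides. *Prtn3* was more level, at 105, 80.2 and 93.2 CPM. The part of these other RNAs in the level of the mitosis genes was not tested. In KO against WT/HET all 9 HSC markers had a log2 fold change above 0 (median 2.77) and 9 of the 11 erythroid markers one below 0 (median -1.28). None of these markers passed edgeR's adjusted threshold (0 of 9 and 0 of 11), with 9 and 0 at an unadjusted p under 0.05. All 6 megakaryocyte markers (median 1.99), 5 of the 6 endothelial (2.02) and 4 of the 5 progenitor markers (1.71) were above 0, and all 7 hepatocyte (-2.53) and 5 of the 7 myeloid markers (-1.49) were below 0, with 0 of these genes called.

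**Figure D4:**
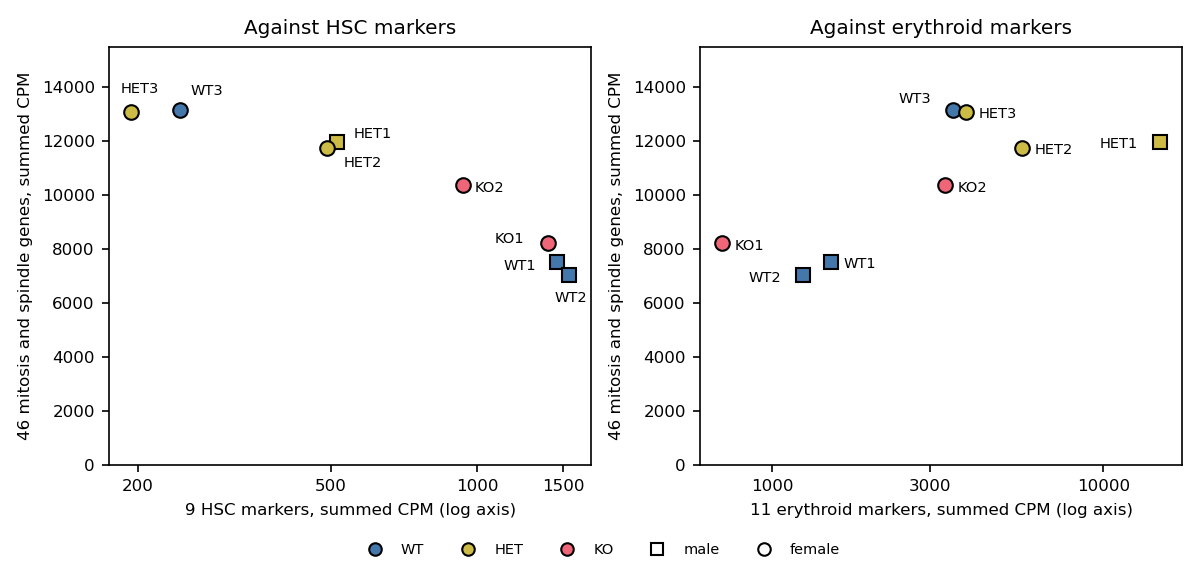
Summed CPM of the 46 genes (vertical axes) against the summed CPM of 9 HSC markers (left, log axis) and 11 erythroid markers (right, log axis), 1 point per sample, coloured by genotype, with squares for male and circles for female. On the left the samples run from HET3 and WT3 at the upper left, at 194 and 244 CPM of HSC markers, to WT1 and WT2 at the lower right, with KO2 and KO1 between.

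Neighbouring genes of the cell cycle were read from lists of their own. Of 54 other genes of mitosis, 38 had a log2 fold change below 0 in KO against WT/HET, with a median of -0.21, 8 lower and 3 higher at an unadjusted p under 0.05. Over all genes, as given above, 44.8% were below 0, and 9.48% were lower and 15.7% higher at that p. *Ska1* (-0.92) and *Hmmr* (-0.86), which act at the kinetochore and the spindle, were the lowest, and *Cep55* (0.90) and *Fam83d* (0.95) the highest. Of 30 genes of DNA replication, 25 were below 0, with a median of -0.42, 8 of them at an unadjusted p under 0.05, among them *Pcna* (-0.85), the sliding clamp, and *Rrm2* (-1.06), for ribonucleotide reductase. The 15 genes of the APC/C and its activator *Fzr1* had a median of -0.01, with 9 below 0. The 15 genes of DREAM, MuvB, B-MYB and NF-Y, which bind the promoter letters shown above, had a median of -0.08, with 11 below 0 and *E2f4* the lowest at -1.18. None of the genes of these 4 lists was called by edgeR (0 of 54, 30, 15 and 15). With sex in the same model, the median for male against female was -0.23 for the other mitosis genes, -0.35 for replication, -0.14 for the APC/C and 0.01 for the DREAM list.

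**Figure D5:**
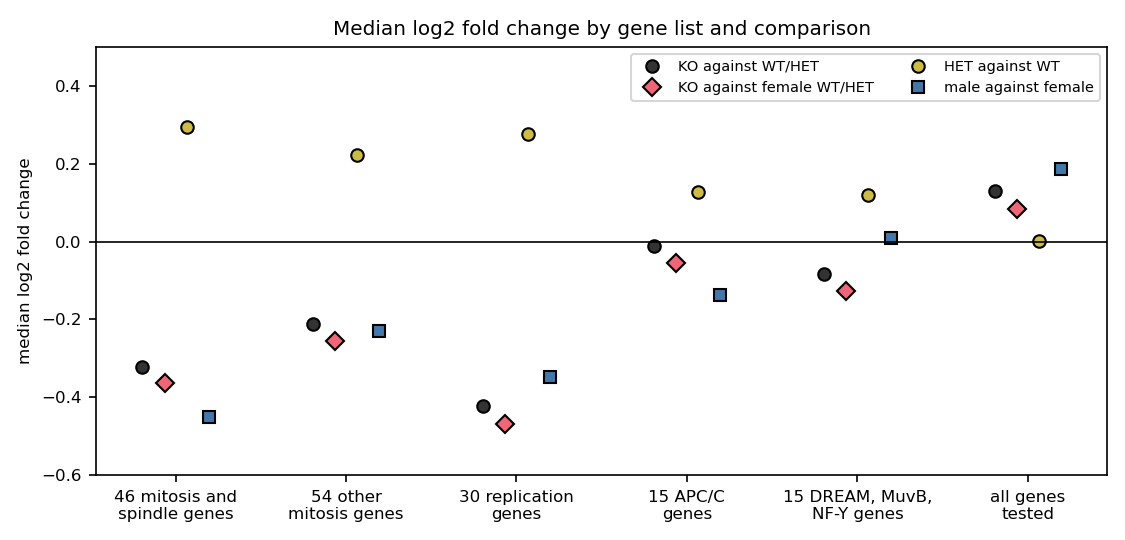
Median log2 fold change (vertical axis) of the 46 genes, 4 other cell cycle lists and all genes tested, for KO against WT/HET, KO against female WT/HET, HET against WT, and male against female. The mitosis, other mitosis and replication lists sit at -0.21 or lower in both KO comparisons and above 0 in HET, and the APC/C and DREAM lists lie nearer to 0.

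The log2 fold changes also moved with the level and length of the genes, among the mitosis genes as among all genes. Across the 46 genes, which are not independent replicates, Spearman's rho of the KO log2 fold change was -0.61 with mean CPM and 0.37 with transcript length, and over 9765 genes with a mean of at least 5 CPM it was -0.43 and 0.21. The median log2 fold change of those genes was -0.33 for the shortest transcripts, those of 371 to 1775 bases, and 0.17 for the longest, over 5053 bases. The mitosis genes had -0.46 in the former (6 genes) and -0.19 in the latter (7 genes), so they were lower than the genes of like length in both. Among the 6510 genes of like CPM the median was -0.18 and 4043 were below 0.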

How the data were processed

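Bulk RNA-seq of 8 LT-HSC samples (3 WT, 3 HET, 2 KO) was analyzed, with genotype, sex and RNA label taken from the sample labels. The authors deposited raw counts per gene. Per their methods, reads were trimmed (Trim Galore 0.6.6), aligned to GRCm38 with STAR 2.7.8, and uniquely mapped reads were counted with STAR, so that genes sharing sequence with close copies are undercounted. They also deposited log2 values (variance-stabilizing transformation of DESeq2 1.38.3, corrected for sex with limma), used here only as an alternative.

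Gene symbols came from GENCODE M21 (GRCm38), in which 260 identifiers had no entry. Genes with at least 10 reads over the 8 samples were tested. Counts were scaled by TMM and fitted with edgeR 4.0.16 in R 4.3.3 (quasi-likelihood F test, legacy fit), with sex as a covariate where both sexes entered and Benjamini-Hochberg adjustment over all genes. A gene was called where the adjusted p was under 0.05 and the log2 fold change beyond 1 in size. DESeq2 1.42.0 and apeglm 1.24.0 were run as alternatives, and the fits were tested on simulated data. Both KO comparisons rest on the same female samples for their fold changes, and the sex comparison shares samples with them. CPM are counts over the TMM-scaled library size.

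The 46 genes and all lists were chosen with earlier results of these data known. The genes given with full values are core genes of each role, any called gene, and the 3 lowest and 3 highest KO fold changes, and *Nek2* and *Spc24* were added after their values were seen. Genes named from other lists are the extreme or best-known ones. No 2 samples of a genotype agreed within sampling noise (chi-square per gene 18.9 to 261). Same-numbered samples deviated together for WT and HET (r = 0.65, 0.49 and 0.77, partly of the same sex) but not for KO2 (r = -0.60 with WT2). Samples of different numbers did so as well, with r = 0.69 for WT2 and HET1 and 0.60 for WT2 and KO1. The numbers are therefore not shown to pair the samples. P-values measure the spread between the samples of one study, with WT and HET pooled in the KO and sex comparisons. That spread includes the differences in marker RNA between the samples.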

Additional observations from a re-analysis of the deposited data

How the results depend on the processing

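The KO samples were 2 in number and both female. HSC marker RNA was lowest in HET3 and WT3 and next lowest in HET2 and HET1. These features limit every comparison. Over all alternatives edgeR and DESeq2 called 0 of the 46 genes in KO against WT/HET. Leaving out 1 sample moved the median of KO against WT/HET between -0.43 and -0.21, of KO against female WT/HET between -0.50 and -0.23 (0 to 5 called, 5 without KO2), of HET against WT between -0.085 (without HET1) and 0.65 (without WT3), of male against female between -0.68 and -0.28 (0 to 10 called, 10 without HET1), and of the HET effect by sex between 0.62 and 0.85 (0 to 12 called, 2 without HET2 and 12 without HET3). The cause was not tested. Counts of genes lower at an unadjusted p under 0.05 in KO against WT/HET ran up to 21 without HET1 (against 12.9% of all genes). They were 1 without WT3 or HET3, and of all 20610 genes 1083 and 1009 were lower in these fits. Without the sex covariate the count was 0, and 190 over all genes. With WT alone as reference, where WT3 is the only female WT sample, the median was -0.37.

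DESeq2 called 1 gene in HET against WT, 1 in male against female and 4 for the HET effect by sex, and a filter of 1 read called 1 in HET against WT. With library size only, the median was 0.19 in HET against WT and -0.046 in KO against female WT/HET. Leaving out WT3 and HET3 together, chosen after seeing the data, gave 6 called genes and a median of 0.65 in HET against WT, and 0 called in the other comparisons fitted.

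Among the 25 genes given with full values by rule, the sign of the KO log2 fold change turned with library size only for *Foxm1* (0.27), *Ndc80* (0.18), *Kif11* (0.077), *Tpx2* (0.10), *Mki67* (0.079) and *Top2a* (0.11). *Foxm1* also turned with at least 10 reads in every sample (0.058), no sex covariate (0.13), HET alone as reference (0.059), and WT3 and HET3 left out (0.080). With 1 sample left out, *Foxm1* ran from -0.13 to 0.071, *Mki67* from -0.47 to 0.045, *Ndc80* from -0.26 to 0.035 and *Kif18b* from -0.10 to 0.27, and *Kif18b* was -0.0041 with upper quartile factors.

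The replicate number, which is not shown to pair the samples, was also fitted as a block. The median was then 0.31 in HET against WT and -0.26 in KO against WT/HET, with 0 genes called in both, and the block changed no call.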

Other observations

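Of 9896 genes outside the lists with a mean of at least 5 CPM, the one whose log2 CPM followed the mean of the 46 genes most closely over the 8 samples was *Fam173b* (Pearson r = 0.99), for a mitochondrial methyltransferase, at 18.0, 15.8 and 32.4 CPM in WT, 29.8, 29.7 and 34.8 CPM in HET, and 19.9 and 27.0 CPM in KO. *Spdl1*, which encodes a kinetochore adaptor and was not on the lists, was the fourth closest (r = 0.99), at 36.5, 34.5 and 93.4 CPM in WT, 79.9, 68.2 and 81.5 CPM in HET, and 43.7 and 65.8 CPM in KO. *Egfl7*, a gene of endothelial and stem cells, ran most nearly opposite (r = -0.99), at 381, 442 and 191 CPM in WT, 213, 218 and 181 CPM in HET, and 336 and 262 CPM in KO. *Lmo2*, a hematopoietic transcription cofactor, also ran opposite (r = -0.98), from 898 CPM in WT2 to 614 CPM in HET1. The 8 samples share libraries and scaling, and these values are given as a description.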
